A study of Rattus norvegicus with 38 samples.

Results

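The left and the right atrium of healthy rat hearts were compared by RNA sequencing in 8 of the 38 libraries of a heart series, 4 of the left atrium (LA) and 4 of the right (RA). The libraries were taken by their labels alone, and each left library was paired with the right library that carries the same code in its title (LA_0920 with RA_0920, LA_0921 with RA_0921, LA_1001 with RA_1001 and LA_1002 with RA_1002). The rats were male, of the Sprague-Dawley strain and 10 weeks old. In the failing hearts of the same series the ascending aorta had been constricted when the pups were 1 week old, and the left ventricle had thickened. That protocol text is attached to healthy libraries as well, and no label tells of a sham operation or any other procedure in the healthy rats. Failing left and right atria (4 libraries each, with other codes) were used as a second set of the same comparison. The inferior and the superior part of the sinoatrial node (iSAN and sSAN, 4 healthy and 4 failing libraries each, the healthy ones titled SB and ST) and the left ventricle (LV, 2 healthy and 4 failing) served for levels only. No label ties a code to an animal. Every p-value therefore refers to the spread among libraries, which may be technical.

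The atria receive blood and pass it to the ventricles, and their muscle also secretes natriuretic peptides. The sides differ in origin. The right atrium takes in tissue of the sinus venosus, and the sinoatrial node, where the heartbeat starts, lies in its wall. In the adult, the growth factor BMP10 is known as a product of the right atrium. The deposited tables carry Ensembl gene IDs only and do not pair them with names, and the reference table used here matched 0 of the 24057 IDs. Whether a gene described below is a known marker of either side is therefore not given here. Neither the lists of cell type markers nor those of pathways could be applied, so the atrial identity of the pieces was not checked against markers. Sidedness is described through 4 genes given by ID and through the full sets of left- and right-sided genes.

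Side was the main axis along which the 8 libraries differed. In a principal component analysis of 14024 genes, 40.9% of the variance lay on the first axis. Left libraries scored between 21.5 and 28.1 on it, and right libraries between -26.6 and -24.3, so the groups did not overlap. The second component, with 16.5%, set the pairs of LA_0920 and LA_0921 (15.4 to 17.1) apart from those of LA_1001 and LA_1002 (-19.7 to -13.4) in both atria. The labels do not say what these libraries share. The left libraries were deeper than the right ones in 4 of 4 pairs, with 24650908 ± 886593 against 22014269 ± 699705 estimated counts (SD, n = 4 each; exact two-sided sign permutation p = 0.13, the smallest that 4 pairs allow). The part of depth in the results below was not tested. The number of genes with a count was close on the 2 sides, at 16918 ± 134 and 16832 ± 103 (SD, n = 4 each).

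Of the 14024 genes tested, 2692 (19.2%) differed between the healthy atria at an adjusted p under 0.05, with the code as a block. The 2 sides held nearly equal shares: 1353 genes (9.65%) were higher in the left atrium and 1339 (9.55%) in the right. This balance depended on the scaling, since limma on log2(TPM + 1) gave 900 left-sided and 1272 right-sided genes, and 1115 and 1090 after TMM rescaling. In 1670 of the 2692 genes (62%), the 4 left and the 4 right libraries did not overlap, against 15% of all genes tested. Without the block, which treats the libraries as unpaired, 1282 genes passed (655 left and 627 right), and every one of them was among the 2692. In 1 fit of all 38 libraries, which uses the spread of all regions, 378 passed (200 left and 178 right). Within the pairs of LA_1001 and LA_1002 alone, 806 left-sided and 818 right-sided genes passed.

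**Figure D1:**
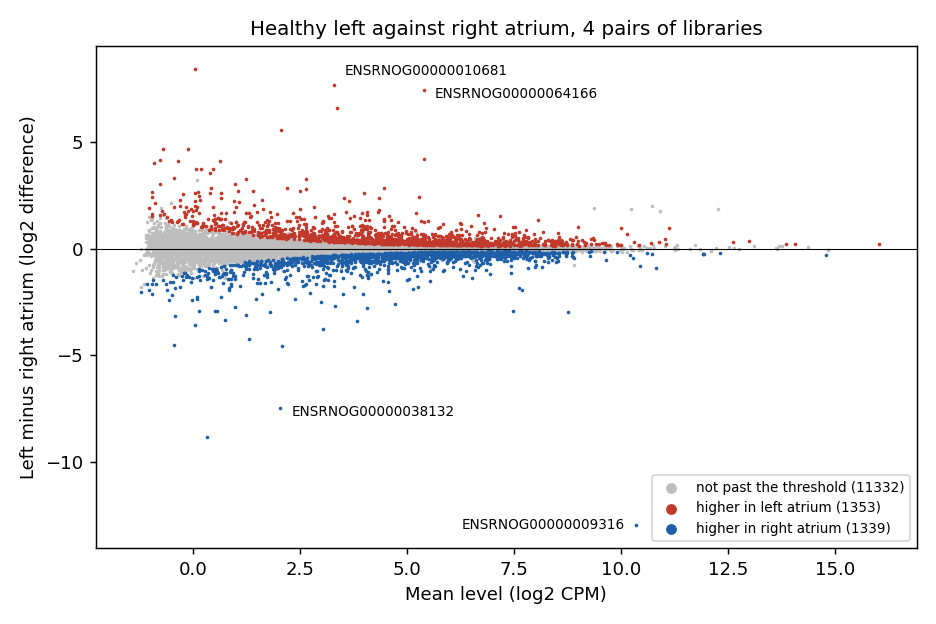
Each point is 1 of 14024 genes, with its mean level in the 8 healthy atrial libraries (log2 CPM, counts per 1e+06) on the x axis and its log2 difference, left minus right, on the y axis. The 1353 left-sided genes are red and the 1339 right-sided genes blue. Most lie close to 0, and the 4 labelled genes have the log2 differences 7.63, 7.42, -12.95 and -7.46.

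Most sided genes differed by little. The median size was 0.41 on the log2 scale for left-sided genes (quartiles 0.26 and 0.75) and 0.37 for right-sided genes (quartiles 0.23 and 0.68). In both sets most members were under 1.5-fold apart, 880 of the 1353 left-sided and 919 of the 1339 right-sided genes. A difference of at least 2-fold was found for 220 left-sided and 189 right-sided genes, of at least 4-fold for 50 and 38, and of at least 16-fold for 12 and 6. The strongly sided genes were mostly weakly expressed. When all tested genes were divided into 5 equal classes by level, the lowest class held 131 of the 220 left-sided and 99 of the 189 right-sided genes with a difference of at least 2-fold. The highest class held 8 and 11 of them, although it held the most called genes (393 left-sided and 465 right-sided). The median standard error fell from 0.31 in the lowest class to 0.05 in the highest, so that small differences could pass in the highest. In the lowest class mainly large differences could pass. The median log2 size of called genes was 1.21 in the lowest class and 0.24 in the highest.

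Among the strongly sided genes, the right-sided ones together made up a larger share of the transcripts. The 38 right-sided genes with a difference of at least 4-fold together made up 0.813% ± 0.0542 of the total TPM (transcripts per 1e+06, a length-corrected share) in right and 0.088% ± 0.0393 in left libraries (SD, n = 4 each). The 50 left-sided genes with such a difference made up 0.0279% ± 0.00331 in the left atrium and 0.00342% ± 0.000484 in the right (SD, n = 4 each). These shares describe genes chosen for their difference and carry no test. A few abundant genes can carry such a share: ENSRNOG00000009316, described below, alone had 1592 TPM on average in the right libraries. How many genes carry the shares was not examined. In 7 left-sided and 3 right-sided genes, the low side had at most 3 counts in each of its 4 libraries, that is, next to no transcripts. Gene length differed little between the sets where it could be read. This was possible for 1274 of the 1353 left-sided and 1246 of the 1339 right-sided genes. Genes with an estimated count of 0 in any of the 38 libraries were left out. Relative to the median tested gene, the median log2 length was 0.02 for left-sided and 0.15 for right-sided genes, with quartiles of -0.57 and 0.68, and of -0.57 and 0.80.

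Called genes were kept if their mean in the 8 healthy atrial libraries was at least 1 log2 CPM (counts per 1e+06). With the same sign in all 4 pairs also required, 1187 were left-sided and 1202 right-sided. The CPM values of single libraries given below are scaled across all 38 libraries. The pair with the largest differences on each side is described next. The third largest differences were 6.55 on the left and 4.54 on the right.

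The largest right-sided difference belonged to ENSRNOG00000009316, which was high in the right atrium and close to the limit of detection in the left. In the right atrium it stood at 3085 CPM in library RA_0920, 2374 in RA_0921, 2455 in RA_1001 and 1879 in RA_1002. In the left atrium it stood at 0.222 CPM in LA_0920, 0.544 in LA_0921, 0.359 in LA_1001 and 0.0822 in LA_1002. The 4 left libraries together held 32 counts of this gene and the 4 right libraries 232739. A number of 3 counts corresponds to between 0.109 and 0.127 CPM in these libraries, and the left values are 6, 15, 9 and 2 counts. The log2 difference was -12.95 (edgeR adjusted p = 1.8e-09) and ranged from -13.42 to -12.69 when 1 code was left out. The ratio of depth-scaled counts was 7953, with a 95% counting interval of 5634 to 11628 that covers counting error only. In the right atrium the gene was among the most abundant of the tissue, at 1592 ± 316 TPM (SD, n = 4) and with a rank by TPM between 45 and 61 of all genes.

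The second right-sided gene, ENSRNOG00000038132, was weakly expressed but as cleanly divided. It had 7.27, 6.94, 6.84 and 9.68 CPM in RA_0920, RA_0921, RA_1001 and RA_1002. In the left atrium LA_0921 had 0.0363 CPM and LA_1001 had 0.12, which are 1 and 3 counts, while LA_0920 and LA_1002 had 0 counts. The groups did not overlap, and the log2 difference was -7.46 (edgeR adjusted p = 3.3e-10). The ratio of 731 right to 4 left counts, scaled for depth, was 199.8 (95% counting interval 77.7 to 735). The fitted difference moved between -8.81 without the pair of RA_1001 and -7.00 without that of RA_1002.

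On the left side ENSRNOG00000010681 had the largest difference. It stood at 17.5 CPM in LA_0920, 16.7 in LA_0921, 20.6 in LA_1001 and 16.2 in LA_1002, a narrow range. The right libraries had 1 count in RA_0920, 4 in RA_0921, 0 in RA_1001 and 3 in RA_1002, or at most 0.169 CPM. The gene was thus at the limit of detection there, and the groups did not overlap. The log2 difference was 7.63 (edgeR adjusted p = 5.6e-12) and ranged from 7.16 to 8.21 when 1 code was left out. The ratio of 1846 left to 8 right counts, scaled for depth, was 211 (95% counting interval 107 to 489).

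The second left-sided gene, ENSRNOG00000064166, had 86.1, 86.9, 45.5 and 89.9 CPM in LA_0920, LA_0921, LA_1001 and LA_1002. The right libraries had 0.505, 0.338, 0.591 and 0.334 CPM in the same order of codes. LA_1001 was lower than the other left libraries but far above every right library. The log2 difference was 7.42 (edgeR adjusted p = 2.9e-12) and ranged from 7.22 to 7.78 when 1 code was left out. The ratio of 8051 left to 42 right counts, scaled for depth, was 175 (95% counting interval 129.6 to 243). By length-corrected level the gene was modest, at 6.42 ± 1.82 TPM in the left atrium (SD, n = 4), against 13.6 ± 1.45 TPM (SD, n = 4) for ENSRNOG00000010681, whose CPM was lower. For each of these 4 genes the direction and the call held in all 14 alternative fits of the healthy comparison, with adjusted p of at most 0.00042 among them.

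**Figure D2:**
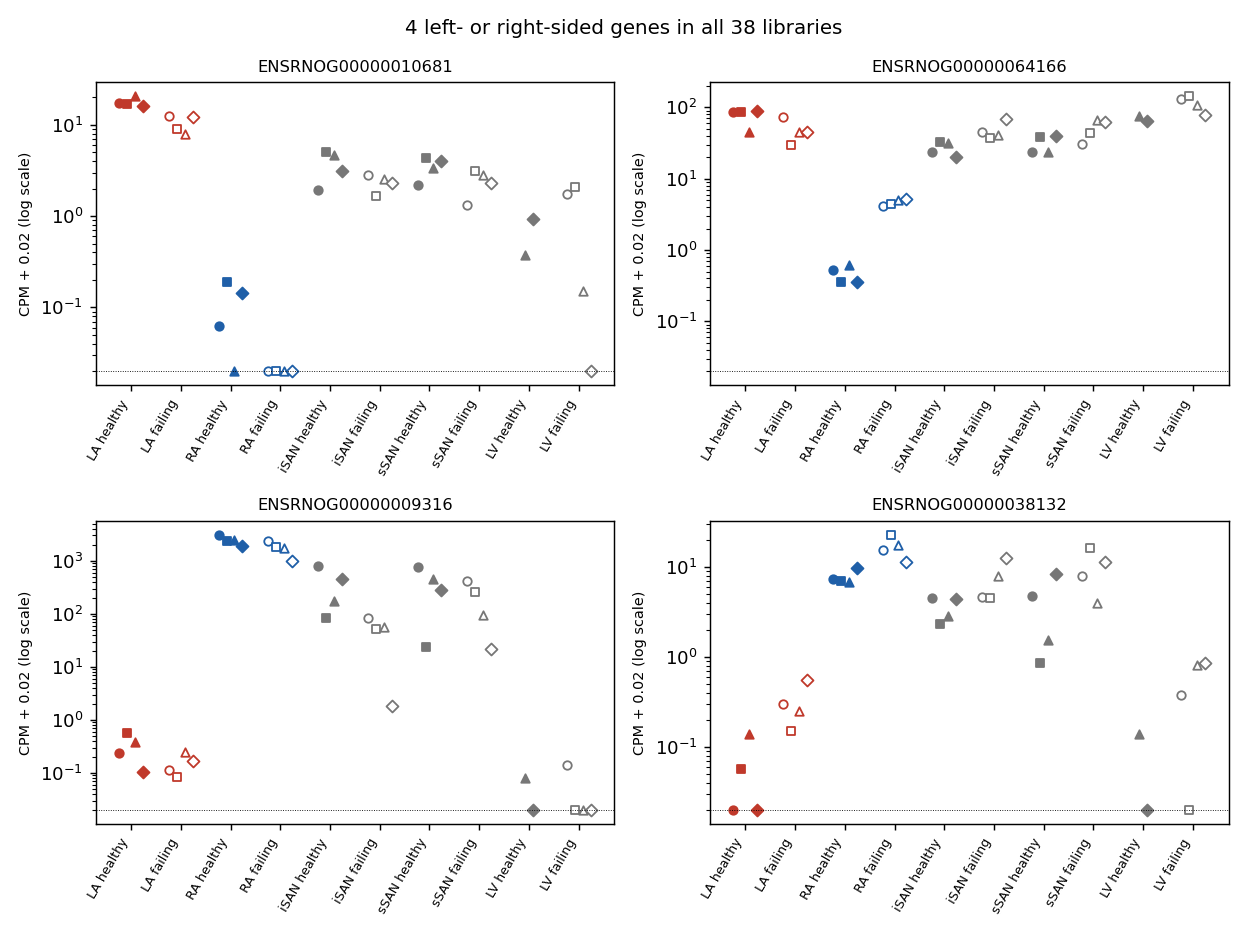
CPM plus 0.02 on a log axis in every library, by region and health state, for the left-sided genes (upper row) and the right-sided genes (lower row). Filled symbols are healthy and open symbols failing hearts, the symbol shape marks the code within a health state, and the dotted line marks 0 CPM. Left atria (red) and right atria (blue) do not overlap in either health state, and the node libraries (grey) lie between the atria for ENSRNOG00000010681 and ENSRNOG00000009316, while some reach the range of 1 atrium for the other two.

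The same 4 genes were sided in failing hearts. Failing libraries did not enter the fit that ranked them. ENSRNOG00000009316 had 2363, 1803, 1705 and 1004 CPM in RA_0409, RA_0506, RA_0507 and RA_0508, and 0.0935, 0.0655, 0.228 and 0.147 CPM in the left libraries in the same order (log2 difference -13.59, edgeR adjusted p = 0.00045). ENSRNOG00000038132 had 15.3, 22.6, 17.5 and 11.3 CPM on the right and 0.28, 0.131, 0.228 and 0.539 on the left (log2 difference -5.85, edgeR adjusted p = 0.023). Both right-sided genes thus kept a wide gap between the atria. ENSRNOG00000010681 had 12.6, 9.04, 7.91 and 12.1 CPM in the failing left atria and 0 counts in each of the 4 failing right atria. Against a limit of 3 counts in each right library it was at least 77.4-fold higher on the left (edgeR adjusted p = 0.040). ENSRNOG00000064166 had 72.7, 29.6, 45.8 and 44.9 CPM on the left and 4.11, 4.46, 4.97 and 5.13 on the right (log2 difference 3.31, edgeR adjusted p = 0.023). None of the 4 had overlapping groups. The 95% counting intervals of the depth-scaled ratios were 7897 to 25364 for ENSRNOG00000009316, 42.6 to 94.7 for ENSRNOG00000038132 and 9.14 to 11.2 for ENSRNOG00000064166. The call of ENSRNOG00000009316 remained whichever of the 4 codes was left out. For the other genes the adjusted p rose to between 0.051 and 0.16 without any 1 code, except for ENSRNOG00000038132 without LA_0508 and RA_0508 (0.017), while the log2 difference was 3.02 to 3.49 for ENSRNOG00000064166 and -6.44 to -5.40 for ENSRNOG00000038132.

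Across all genes far fewer passed in failing than in healthy atria, with 39 of 14134 (0.276%), 20 left-sided and 19 right-sided. Of the 39, 28 were called on the same side in healthy hearts, 0 on the other side, 8 were not called and 3 were below the filter there. The 28 are 71.8% of the failing list and 1.04% of the healthy list. Of all genes tested in healthy hearts, 9.65% were called left-sided and 9.55% right-sided. The failing libraries varied more, with a biological coefficient of variation of 0.218 against 0.0746 in healthy ones, and a median standard error of 0.17 against 0.09. The number rested on each code, with 1 gene left without the libraries LA_0409 and RA_0409, without LA_0506 and RA_0506 or without LA_0507 and RA_0507, and 5 without LA_0508 and RA_0508. Nor did the codes pair the failing libraries as they did the healthy ones. The deviations of same-coded left and right libraries from their group means correlated across genes at 0.31 to 0.36 in healthy hearts, but in failing hearts at 0.36 for LA_0409, 0.10 for LA_0506, 0.23 for LA_0507 and -0.08 for LA_0508 with their same-coded right libraries. Without the block, 44 genes passed, of which 22 were among the 39. DESeq2 called 492 genes, which included all 39, and the fit of all 38 libraries 404.

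Genes sided in healthy hearts mostly leaned to the same side in failing ones. No filter on low counts was applied to the failing libraries here, so that every gene is accounted for. Of the 220 left-sided genes with a healthy difference of at least 2-fold, 184 were higher on the left in failing hearts as well, 90 of them with an unadjusted p under 0.05, and 2 had such a p on the other side. Over all 14024 genes, 4.92% had an unadjusted p under 0.05 and were higher on the left, and 5.53% on the right. Of the 189 right-sided genes of that size, 155 were higher on the right in failing hearts, 89 with an unadjusted p under 0.05, against 6 on the other side. The median log2 difference of the left-sided genes was 1.41 in healthy and 0.68 in failing hearts. That of the right-sided genes was -1.41 and -0.73, and the median over all genes was 0.00 and -0.01. The healthy medians follow from how the genes were picked, so setting the 2 medians side by side is no test of a change. Of all 1353 left-sided genes, 808 (59.7%) were higher on the left in failing hearts, and of all 1339 right-sided genes, 1028 (76.8%) were higher on the right, while 53.1% of all tested genes were higher on the right.

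**Figure D3:**
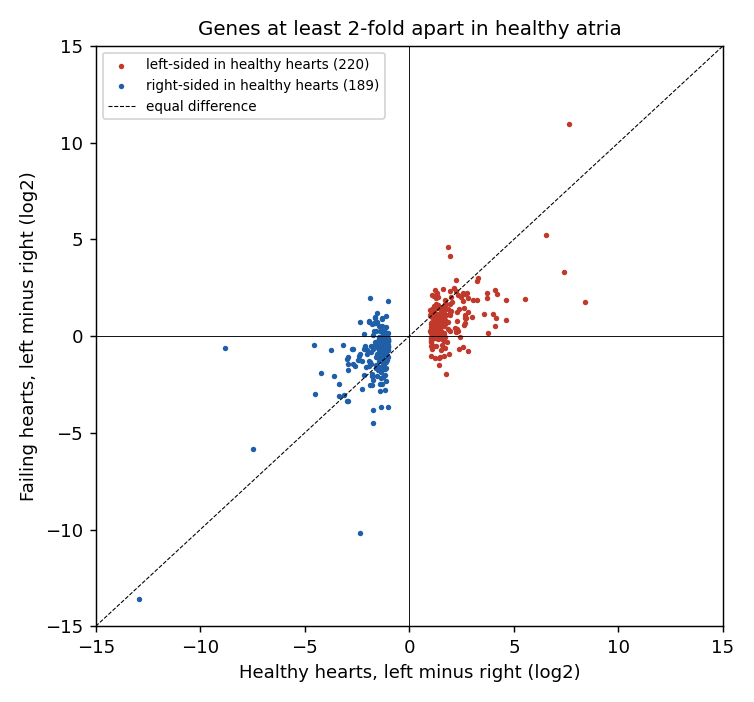
Log2 differences, left minus right, in healthy (x axis) and failing hearts (y axis) for the 220 left-sided (red) and 189 right-sided (blue) genes at least 2-fold apart in healthy atria. Most red points lie above 0 and most blue points below 0 on the y axis. The dashed line marks equal differences, and the median red point falls from 1.41 on the x axis to 0.68 on the y axis.

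Whether sidedness differed between the health states was tested as the difference between the 2 left-right differences in 16 libraries. It passed for 24 of 14612 genes (0.164%), and 18 of the 24 were called in the healthy comparison (11 left-sided and 7 right-sided). Of all genes tested in healthy hearts, 19.2% were called. Both tests use the same 8 healthy libraries, so this overlap is partly built in and is no support for either. The number was unstable: it was 1 without the healthy pair of LA_0920, LA_0921 or LA_1002, 3 without that of LA_1001, and 104, 60 and 208 without the failing libraries coded as LA_0409, LA_0507 and LA_0508. DESeq2 called 361 genes, which included all 24. Of the 4 genes, ENSRNOG00000064166 passed, with a left-right difference 4.09 larger (log2) in healthy than in failing hearts (SE 0.40, 95% interval 3.18 to 4.99, edgeR adjusted p = 0.0084). Its levels differed between the health states on the right side, where they were 0.334 to 0.591 CPM in healthy and 4.11 to 5.13 CPM in failing libraries, without overlap. On the left side the health states overlapped, at 45.5 to 89.9 and 29.6 to 72.7 CPM. The call was lost without the healthy pair of LA_0920, LA_0921 or LA_1002 (adjusted p from 0.055 to 0.086). The other differences did not pass. That of ENSRNOG00000009316 was 0.64 (95% interval -0.73 to 2, edgeR adjusted p = 0.76) and that of ENSRNOG00000038132 was -1.59 (95% interval -3.73 to 0.55, edgeR adjusted p = 0.60). For ENSRNOG00000010681 the fitted value (adjusted p = 0.46) depends on how 0 counts are treated and is not interpreted.

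Outside the atria the right-sided genes were present in the sinoatrial node, which lies in the right atrial wall. ENSRNOG00000009316 stood at 811 CPM in SB_0920, 82.3 in SB_0921, 173 in SB_1001 and 454 in SB_1002 of the healthy inferior node. In the healthy superior node it stood at 779 CPM in ST_0920, 24.1 in ST_0921, 447 in ST_1001 and 281 in ST_1002. Every node library was below every right atrium of its health state and above every left atrium. Among the healthy libraries, SB_0921 and ST_0921 were lowest and SB_0920 and ST_0920 highest of their region. Failing libraries of the inferior node reached lower, from 1.81 to 83.8 CPM. Those of the superior node had 22 to 415 CPM, which overlapped the healthy range widely, and the lowest values were close (22 and 24.1 CPM). In the healthy left ventricle the gene had 0.0588 and 0 CPM, that is, 1 count in 2 libraries. ENSRNOG00000038132 had 2.31 to 4.47 CPM in the healthy inferior node, 0.828 to 8.33 in the superior node and at most 0.118 in the left ventricle. In healthy hearts it thus overlapped the right atrium (6.84 to 9.68 CPM) in 1 superior node library. How much right atrial muscle the node pieces held was not tested.

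The left-sided genes followed different patterns outside the atria. ENSRNOG00000010681 had 1.90 to 5.01 CPM in the healthy inferior node and 2.15 to 4.35 in the superior node, below every left atrium and above every right atrium. In the left ventricle it had 0.353 and 0.916 CPM in healthy libraries, again between the atria. ENSRNOG00000064166 was low in the right atrium and in no other region. It had 19.9 to 32.4 CPM in the healthy inferior node, 24.0 to 39.4 in the superior node, and 75.6 and 64.4 in the healthy left ventricle, where its levels lay within the range of the left atrium. The node values were lower than those of the left atrium (45.5 to 89.9 CPM), with no overlap in healthy hearts. These levels are a description, since comparisons with the node or ventricle would use the atrial libraries that chose the genes.

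Among genes at least 2-fold apart, the node was high for those of both sides, and the left ventricle was low for right-sided genes. The level of each gene was taken relative to its mean over the 8 healthy atrial libraries, and the median over the set was read in every library. For the 189 right-sided genes with a difference of at least 2-fold, this median was 0.70 ± 0.05 in healthy right and -0.69 ± 0.07 in healthy left atria (SD, n = 4 each), as the choice of genes requires. In healthy hearts the inferior node had 0.55 ± 0.07, the superior node 0.36 ± 0.34 (SD, n = 4 each) and the 2 left ventricles -0.94 and -0.66. In the superior node the lowest library stood at -0.14, and the other 3 reached up to 0.65. For the 220 left-sided genes it was 0.75 ± 0.07 in the healthy left and -0.73 ± 0.05 in the right atrium (SD, n = 4 each). Inferior node libraries stood at 0.47 ± 0.18, superior ones at 0.53 ± 0.17 (SD, n = 4 each) and the 2 left ventricles at 0.29 and 0.42. The failing left ventricles had 0.29, 0.27, -0.12 and 0.13 for the left-sided genes and -0.57, -0.67, -1.21 and -0.26 for the right-sided ones. Over all 14024 genes the median lay between -0.17 and 0.01 in every library. The sets at least 2-fold apart were weakly expressed, though. Their median level was 1.2 (left-sided) and 1.64 log2 CPM (right-sided), against 4.13 over all genes tested. Other genes of such low levels were not examined, so whether the node levels are particular to these sets was not tested. The full sets, with their many small differences, did not share the high node levels. In the healthy inferior and superior node the medians were 0.00 ± 0.05 and 0.04 ± 0.04 over all 1353 left-sided genes, and 0.03 ± 0.06 and -0.06 ± 0.15 over all 1339 right-sided genes (SD, n = 4 each). The sets at least 2-fold apart were also read in failing hearts. Those 220 left-sided genes stood at 0.33 ± 0.20 in the left and -0.36 ± 0.16 in the right atrium. The 189 right-sided genes stood at -0.10 ± 0.08 and 0.62 ± 0.15 (SD, n = 4 each). Over all 1353 left-sided genes the failing left and right atria stood at -0.11 ± 0.09 and -0.23 ± 0.04. Over all 1339 right-sided genes they stood at -0.09 ± 0.07 and 0.13 ± 0.06 (SD, n = 4 each). In bulk pieces, fewer cells of a type and less RNA per cell cannot be told apart.

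**Figure D4:**
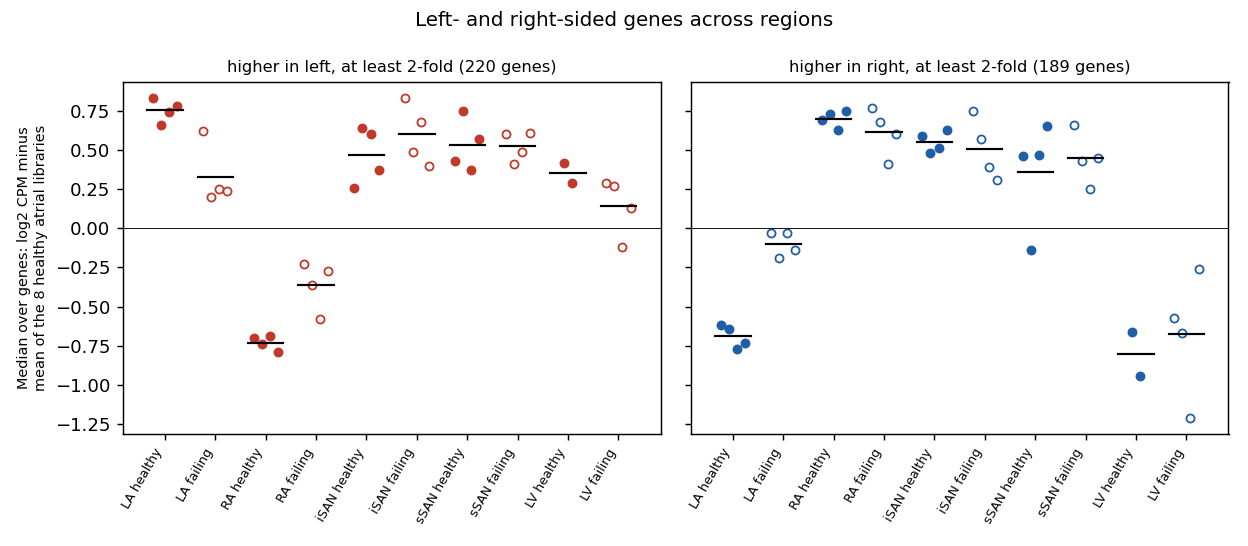
Median over the 220 left-sided genes (left panel) and the 189 right-sided genes (right panel) of log2 CPM minus the gene's mean over the 8 healthy atrial libraries, for each of 38 libraries. Filled points are healthy, open points failing, and bars are group means. Node libraries are high in both panels except for 1 healthy superior node library at -0.14, and the left ventricles, at -1.21 to -0.26 in failing hearts, are below 0 for right-sided genes.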

How the data were processed

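Estimated counts and TPM per gene were deposited by the authors for 38 libraries. The submitters' processing notes name Trimmomatic 0.39 (read trimming) and kallisto 0.48.0 (quantification), but no build or annotation. In 13474 genes checked, deposited counts differed from TPM by only 1 factor per gene and 1 per library, so that a change of transcript length between libraries is not seen in them. Transcript tables were not used.

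Counts were rounded. Genes were filtered with filterByExpr (minimum count 10, total 15), scaled with TMM and tested in R 4.3.3 by edgeR 4.0.16 (quasi-likelihood, robust), with the code as a block, Benjamini-Hochberg adjustment and a threshold of 0.05. Standard errors were derived from the test statistic. For the 4 genes within 1 health state they can fall below the counting error, so counting intervals and leave-one-out ranges are given there. Limma 3.58.1 and DESeq2 1.42.0 served as alternatives. The steps were tested on simulated counts.

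Sets and rules were chosen with earlier results of these data known. Genes given by ID passed the threshold, with at least 1 log2 CPM on average, the same sign in all 4 pairs and the largest differences, 2 per side, since IDs have no names. The 16 gene lists and 21 marker lists could not be applied, and so summed marker levels were not computed. Same-coded healthy libraries correlated at 0.31 to 0.36, and the codes thus pair them by the rule that each exceeds 0.1. In failing hearts they did not (-0.08 to 0.36). The median squared difference between healthy replicates was 4.77 to 7.85 times that due to counting error alone.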

Additional observations from a re-analysis of the deposited data

Results flagged for a closer look

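In 47 groups of 4 libraries, Dixon's ratio set 3 single libraries apart, and chance alone sets apart about 1 in 20 groups of normally spread values. That rate does not hold for groups with several 0 counts. ENSRNOG00000064166 had 45.5 CPM in LA_1001, below the other healthy left atria. ENSRNOG00000038132 had 9.68 CPM in RA_1002, above the other healthy right atria. ENSRNOG00000009316 had 0.119 CPM, or 2 counts, in failing LV_0409 and 0 in the other failing left ventricles. With all other values at 0, the ratio there is 1 whatever the remaining value.

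The left-right difference differed between healthy and failing hearts for 24 genes, and for ENSRNOG00000064166 by 4.09 on the log2 scale.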

How the results depend on the processing

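For the healthy comparison, the total of 2692 became 1282 with no replicate block (655 left, 627 right), 378 in 1 fit of all 38 libraries (200 and 178) and 1624 within the pairs of LA_1001 and LA_1002 alone (806 and 818). That split, with 1951 in the pairs of LA_0920 and LA_0921, was chosen after seeing the data. Limma on log2(TPM + 1) and on log2(TPM + 0.1) gave 900 and 901 left-sided against 1272 and 1279 right-sided genes. Without 1 code the totals were 1986 to 2387, with 992 to 1194 left-sided and 994 to 1193 right-sided. For failing hearts, DESeq2 gave 492 (251 left, 241 right), limma on log2(TPM + 0.1) 83 (44 and 39), limma on log2(TPM + 1) 31 right-sided, and the fit of all 38 libraries 404 (220 and 184). Without 1 code the totals were 1 to 5, with 0 to 1 left-sided and 1 to 4 right-sided. For the difference between health states, DESeq2 gave 361, no filter 53, limma on log2(TPM + 1) 48, and leaving out 1 code 1 to 208. The paired and unpaired fits gave 39 and 44 genes in failing hearts, and 24 and 25 for the difference between health states. That difference changed sign with limma on log2(TPM + 1), log2(TPM + 0.1) and log2(TPM + 1) after TMM rescaling for ENSRNOG00000010681 (0.81, 0.34 and 0.65) and ENSRNOG00000009316 (-0.68, -0.16 and -0.45), and with the first and last of these for ENSRNOG00000038132 (0.46 and 0.67). It passed in no such fit. For ENSRNOG00000064166 it also lost its call with limma on log2(TPM + 1), with and without rescaling (1.09 and 0.97). The cause was not tested. Depth limits the low sides, which hold 4 to 42 counts per group for the 4 genes in healthy hearts.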

Other observations

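A set of 5 abundant genes, chosen after their values were seen, had higher means in the left atrium without passing. Each had a mean of at least 9 log2 CPM and a log2 difference between 1.77 and 1.97 (edgeR adjusted p from 0.26 to 0.37). The limits were 9 log2 CPM and a log2 difference of 1.5. Among genes that did not pass, 0 met them with the higher mean in the right atrium. ENSRNOG00000009316, which did pass, had a mean of 10.35 log2 CPM and a log2 difference of -12.95. Together the 5 genes took 1.73%, 2.92% and 1.69% of the counts in LA_0920, LA_1001 and LA_1002, but 0.297% in LA_0921, which lay within the range of the healthy right atria (0.281% to 0.487%). Outside the atria their share was highest in the healthy superior node libraries ST_0921 and ST_1001, at 2.76% and 2.67%, against 0.207% to 1.2% in the other node and ventricle libraries. What these genes encode is not given here.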
